A study of Mus musculus with 16 samples.

Results

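*Vmn2r80* to *Vmn2r89* are 10 receptor genes of the V2R family of the mouse vomeronasal organ (VNO), the sensory organ of the nasal septum that detects pheromones and other chemosignals. The members were taken by symbol, with earlier results of these data known, and all 10 were listed among the 24407 genes with counts and the 24340 genes with both counts and RPKM (reads per kilobase of gene, scaled to library size). The tables also listed 126 genes with a *Vmn2r* symbol. RNA of the VNO was sequenced in 16 libraries from outbred mice of Hsd:ICR background, at 12 weeks of age and generation 88 of a breeding experiment. The 4 High Runner (HR) lines, lines 3, 6, 7 and 8, were bred for high voluntary wheel running, and the 4 Control lines, lines 1, 2, 4 and 5, were not selected. Each line gave 1 male and 1 female library, each from 3 mice pooled before RNA extraction, so the spread between mice of a line is not seen. The 8 libraries of each sex were reported as 1 table. The authors state that 8 libraries, from the 4 HR and the 4 Control lines, shared 1 sequencing lane. Which libraries these were is not given, so sex and lane may not be separable.

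V2Rs are class C G protein-coupled receptors with a long extracellular domain, and they are found in the basal layer of the vomeronasal epithelium, whose neurons use the G protein subunit Gαo (*Gnao1*). A basal neuron typically carries a member of the large V2R families together with a broadly expressed co-receptor of family C, *Vmn2r1* to *Vmn2r7*. Peptides and proteins from urine, tears and saliva are known ligands of V2Rs, and *Vmn2r88* is known as a receptor for hemoglobin. A receptor is carried by a small part of the neurons, and in RNA of a whole organ, fewer neurons with a receptor and less RNA per neuron cannot be told apart.

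The 10 genes lie in 3 clusters of the GRCm38 genome (GENCODE release M21). *Vmn2r80* to *Vmn2r83* follow each other on the plus strand of chromosome 10 within 344.8 kb, from 79148769 to 79493585. *Vmn2r84* to *Vmn2r87* lie on the minus strand of the same chromosome within 119.5 kb, from 130377925 to 130497396. *Vmn2r88* and *Vmn2r89* lie on the plus strand of chromosome 14 within 53.4 kb, from 51410820 to 51464172. Both chromosome 14 genes lie inside the annotated span of *Gm7247*, and *Vmn2r88* also inside that of *Vmn2r-ps111*, on the same strand, with 0 exon bases shared.

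**Figure D1:**
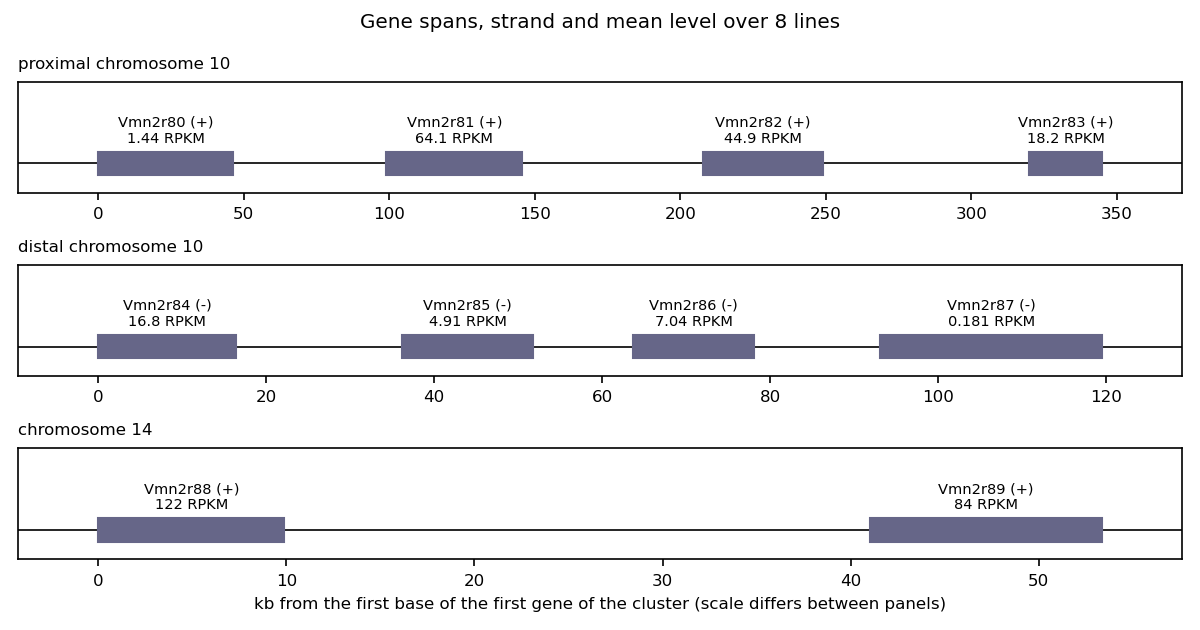
Gene spans (boxes) of the 3 clusters in kb from the first base of each cluster, with the strand and the mean RPKM over 8 lines above each gene. Neighbours differ widely in level, from 0.181 RPKM for *Vmn2r87* to 16.8 for *Vmn2r84* in 1 cluster and from 1.44 for *Vmn2r80* to 64.1 for *Vmn2r81* in another.

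The promoters of 2 genes of each cluster are shown, to show how much sequence neighbouring genes share around the annotated start. Each is the 300 bases from 250 before to 50 after the annotated start (RefSeq, GRCm38.p6), on the strand of the gene. The GENCODE spans given above begin inside these windows, ahead of the RefSeq start. Part of each window before the RefSeq start therefore lies within the GENCODE gene, as for *Vmn2r88*, whose span begins at 51410820. The proximal chromosome 10 promoters lie at chr10:79247527-79247826 and chr10:79356341-79356640 on the plus strand, the distal ones at chr10:130429563-130429862 and chr10:130455845-130456144 on the minus strand, and those of chromosome 14 at chr14:51410751-51411050 and chr14:51451712-51452011 on the plus strand. In the first pair, capitals mark the 14-base word TGGAGAGCCTGAAG, the longest that *Vmn2r80* to *Vmn2r83* share. In the other pairs they mark the 16-base word TGAGGCCAGAATTTTC, the longest shared by *Vmn2r84* to *Vmn2r89*.
Vmn2r81: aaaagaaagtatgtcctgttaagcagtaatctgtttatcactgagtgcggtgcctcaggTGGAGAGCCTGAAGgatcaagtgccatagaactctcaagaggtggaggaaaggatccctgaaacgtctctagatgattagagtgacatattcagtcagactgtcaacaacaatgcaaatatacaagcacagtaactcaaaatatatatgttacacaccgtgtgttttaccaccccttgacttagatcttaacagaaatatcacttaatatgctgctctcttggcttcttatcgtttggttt
Vmn2r82: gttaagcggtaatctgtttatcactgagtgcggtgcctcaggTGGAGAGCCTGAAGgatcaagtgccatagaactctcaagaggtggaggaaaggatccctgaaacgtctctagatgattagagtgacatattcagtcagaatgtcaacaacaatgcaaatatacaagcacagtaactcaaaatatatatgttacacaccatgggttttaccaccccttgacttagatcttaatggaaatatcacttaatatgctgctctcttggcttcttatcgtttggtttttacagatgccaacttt
Vmn2r85: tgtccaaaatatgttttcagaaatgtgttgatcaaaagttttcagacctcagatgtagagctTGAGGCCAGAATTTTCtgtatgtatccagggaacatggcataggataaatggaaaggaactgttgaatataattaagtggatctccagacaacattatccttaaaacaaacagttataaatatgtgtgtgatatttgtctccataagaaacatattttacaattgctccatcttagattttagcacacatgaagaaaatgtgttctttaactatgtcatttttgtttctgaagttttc
Vmn2r86: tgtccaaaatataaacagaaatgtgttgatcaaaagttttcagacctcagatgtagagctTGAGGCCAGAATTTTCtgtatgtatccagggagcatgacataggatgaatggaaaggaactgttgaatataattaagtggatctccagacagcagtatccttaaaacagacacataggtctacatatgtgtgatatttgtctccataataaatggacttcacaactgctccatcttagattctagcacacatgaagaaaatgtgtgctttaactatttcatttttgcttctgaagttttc
Vmn2r88: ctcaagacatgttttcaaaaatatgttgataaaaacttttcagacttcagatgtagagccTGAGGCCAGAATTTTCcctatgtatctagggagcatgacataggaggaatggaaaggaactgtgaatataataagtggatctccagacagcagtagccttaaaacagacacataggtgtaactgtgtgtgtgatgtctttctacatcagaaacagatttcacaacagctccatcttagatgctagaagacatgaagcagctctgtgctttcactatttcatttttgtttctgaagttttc
Vmn2r89: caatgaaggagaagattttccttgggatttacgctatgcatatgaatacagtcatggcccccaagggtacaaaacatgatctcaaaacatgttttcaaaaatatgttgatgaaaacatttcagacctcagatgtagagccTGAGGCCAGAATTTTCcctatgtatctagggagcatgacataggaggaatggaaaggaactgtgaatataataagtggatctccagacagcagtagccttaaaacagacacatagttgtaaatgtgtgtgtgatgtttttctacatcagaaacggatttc

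Read on both strands, the first word occurred in the promoters of 4 genes, 0.0122% of 32851 promoters of this length, and these 4 were *Vmn2r80* to *Vmn2r83*. The second occurred in 14 promoters (0.0426%), 13 of them of *Vmn2r* genes: the 6 members and *Vmn2r8*, *Vmn2r9*, *Vmn2r10*, *Vmn2r11*, *Vmn2r13*, *Vmn2r14* and *Vmn2r121*, beside *Gm14496*. The 2 words do not overlap each other. Promoter identity was 88% to 93.0% among *Vmn2r80*, *Vmn2r81* and *Vmn2r82*, 66.3% to 71.3% between these and *Vmn2r83*, and 86.7% to 93.7% among *Vmn2r84* to *Vmn2r87*. The promoter of *Vmn2r88* was 83.7% to 85.7% identical to those of *Vmn2r84* to *Vmn2r87*, on another chromosome. The longest stretch shared without a break was 133 bases for *Vmn2r81* and *Vmn2r82* and 129 bases for *Vmn2r88* and *Vmn2r89*. As whole windows, the promoters of *Vmn2r88* and *Vmn2r89* were 70.7% identical. The annotated start of *Vmn2r89* is shifted against that of *Vmn2r88*, so that the shared word begins at position 141 of its window and at position 61 in *Vmn2r88*.

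The coding sequences fell into the same groups. They were 94.9% to 96.1% identical among *Vmn2r80*, *Vmn2r81* and *Vmn2r82*, 83.3% to 83.7% between these and *Vmn2r83*, 96.0% to 98.0% among *Vmn2r84* to *Vmn2r87* and 89.0% to 89.5% between the latter and *Vmn2r88*. The annotated coding sequence of *Vmn2r89* is 1521 bases against 2571 in *Vmn2r88*, and its aligned part was 94.4% identical to *Vmn2r88*. The authors aligned reads of 75 nucleotides with 0 mismatches and kept those with 1 location, so a read from a stretch that copies share was not counted, and a read over a base that differs from the reference was not aligned. Of the 75-base words of a gene's exons, the part found in no other gene was 100% for *Vmn2r83*, 95.2% for *Vmn2r89*, 93.7% for *Vmn2r82*, 92.7% for *Vmn2r88* and 90.4% for *Vmn2r84*. It was 82% to 86.2% for *Vmn2r80*, *Vmn2r81*, *Vmn2r85* and *Vmn2r86* and 73.6% for *Vmn2r87*. The words cover untranslated as well as coding sequence, and their number ran from 2644 for *Vmn2r80* to 11806 for *Vmn2r84*. These shares therefore depend on transcript length, and the share within the coding sequence alone was not counted. Levels of these genes compared with each other, *Vmn2r84* included, carry that uncertainty.

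The libraries held 15998552 to 70875276 counts on genes, and the 10 receptors took 14.1% to 20.4% of the counts on all *Vmn2r* genes. Of the neuron markers, *Omp*, the marker of mature olfactory and vomeronasal neurons, had at least 19867 counts and *Gnao1* at least 4779 in every library. *Trpc2*, the transduction channel of vomeronasal neurons, was listed at 0 counts in all 16 libraries, which cannot be read as absence from the tissue, and the reason was not tested. The female library of Control line 4 stood apart in keratin genes of basal epithelial cells, with a summed *Krt5* and *Krt14* level of 256 CPM (counts scaled to library size) against 14.7 to 54.7 CPM in the other 15.

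The chromosome 14 pair was among the most abundant V2R mRNAs. By mean RPKM over the libraries, *Vmn2r88* held rank 1, *Vmn2r89* rank 3, *Vmn2r81* rank 8 and *Vmn2r82* rank 14 of 126 *Vmn2r* genes, whereas *Vmn2r80* held rank 101 and *Vmn2r87* rank 119. The mean RPKM over 8 lines was 122 ± 21.8 (SD, n = 8 lines) for *Vmn2r88*, 84.0 ± 27.1 for *Vmn2r89*, 64.1 ± 12.4 for *Vmn2r81* and 44.9 ± 8.36 for *Vmn2r82*. It was 18.2 ± 2.08 for *Vmn2r83*, 16.8 ± 2.48 for *Vmn2r84*, 7.04 ± 1.70 for *Vmn2r86* and 4.91 ± 1.76 for *Vmn2r85*. The lowest were *Vmn2r80* at 1.44 ± 0.545 and *Vmn2r87* at 0.181 ± 0.0567, the latter on 8 to 35 counts a library.

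Of the 9 neighbours in this order, 3 were separated in every library without overlap of their ranges: *Vmn2r82* above *Vmn2r83* (2.47-fold), *Vmn2r84* above *Vmn2r86* (2.38-fold) and *Vmn2r80* above *Vmn2r87* (7.97-fold). *Vmn2r81* lay above *Vmn2r82*, and *Vmn2r85* above *Vmn2r80*, in each of the 16 libraries although the ranges overlapped, and *Vmn2r86* above *Vmn2r85* in 15. The order of the other neighbours changed with the line. *Vmn2r88* exceeded *Vmn2r89* in 13 libraries, *Vmn2r89* exceeded *Vmn2r81* in 12 and *Vmn2r83* exceeded *Vmn2r84* in 13.

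**Figure D2:**
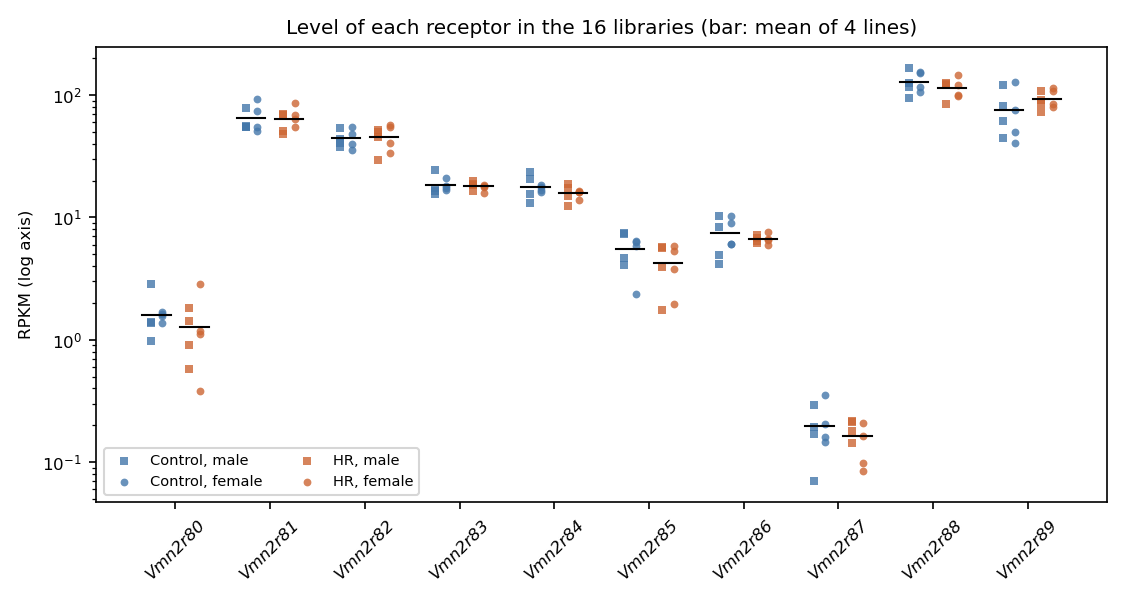
RPKM of each receptor in every library on a log axis, Control lines in blue and HR lines in orange, male pools as squares and female pools as circles, with a bar at the mean of 4 lines. The 10 receptors span from 0.0693 RPKM (*Vmn2r87*, a Control male library) to 168 RPKM (*Vmn2r88*, a Control male library), and the 2 linetypes overlap for every receptor.

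The comparison of the HR with the Control lines asks whether breeding for wheel running went along with a change in these receptors. None passed the test: 0 of 10 had an adjusted p under 0.05, against 4 of 16507 genes in all (0.0242%), and 0 of 10 an unadjusted p under 0.05, against 3.30% of all genes (edgeR quasi-likelihood test, sex as covariate). DESeq2, the edgeR test on counts summed per line and limma-voom, in which line was a random effect, also called 0 of 10. The groups of 4 line means overlapped for all 10 receptors, a description only, as the share of all genes with such overlap was not counted. The test takes both libraries of a line as separate samples. With the line as the unit, the exact two-sided permutation test on log2(RPKM + 1) gave p from 0.314 to 0.971, where 0.0286 is the smallest that 4 lines against 4 allow.

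By the edgeR log2 fold change the largest difference in size was that of *Vmn2r85*, with 4.25 ± 1.81 RPKM in HR and 5.56 ± 1.67 RPKM in Control lines (mean ± SD of 4 lines). Its log2 fold change was -0.37 ± 0.27 (SE). On the log2(RPKM + 1) scale its difference was -0.35 (exact permutation p = 0.457) and that of *Vmn2r89* was larger, at 0.40 (exact permutation p = 0.343). *Vmn2r80* stood at 1.28 ± 0.706 RPKM in HR and 1.60 ± 0.358 in Control lines, with a log2 fold change of -0.31 ± 0.33. *Vmn2r89* was the one receptor with a difference of similar size in the other direction, at 92.8 ± 14.8 RPKM in HR and 75.2 ± 35.9 in Control lines and a log2 fold change of 0.30 ± 0.23. Its SD among the Control lines was larger than the difference of the means. These 3 values rested on single lines. Leaving out Control line 1 brought *Vmn2r89* to 0.10, leaving out Control line 5 to 0.18, and leaving out Control line 2 to 0.66. *Vmn2r80* moved to -0.04 once HR line 3 was dropped, to -0.15 once Control line 5 was, and to -0.69 once HR line 7 was. *Vmn2r85* came to -0.12 when HR line 3 was left out, to -0.24 when Control line 2 was and to -0.55 when HR line 8 was.

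The remaining 7 had log2 fold changes between -0.19 and 0.03. The log2 fold change was -0.19 ± 0.11 for *Vmn2r84* and -0.19 ± 0.12 for *Vmn2r88*. *Vmn2r88*, the hemoglobin receptor, stood at 115 ± 18.4 RPKM in HR and 129 ± 25.3 in Control lines. *Vmn2r81*, *Vmn2r82* and *Vmn2r83* had values of -0.01 ± 0.14, 0.03 ± 0.14 and -0.03 ± 0.09. The median over the 10 was -0.13, against 0.0025 over all genes tested and 0.05 over 122 *Vmn2r* genes.

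**Figure D3:**
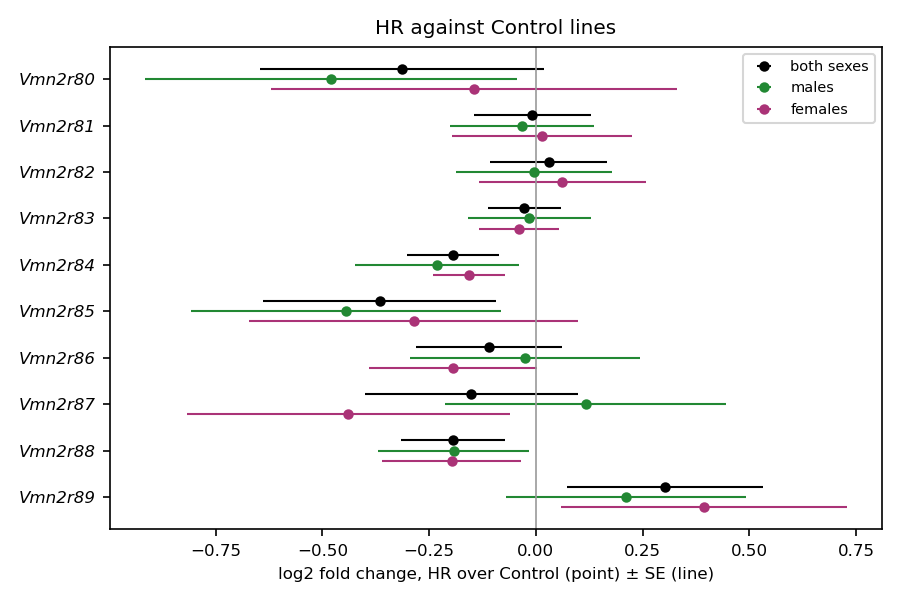
Log2 fold change of HR over Control lines for each receptor (point) with its standard error (line), from the edgeR fit of both sexes and of each sex alone. No receptor passed the test in any of the 3 fits, and *Vmn2r85* and *Vmn2r80* have the lowest and *Vmn2r89* the highest value with both sexes.

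Within 1 sex no receptor was called either. In males 0 of 10 receptors were called, with 0% of 16361 genes, and in females 0 of 10, with 0% of 16326 genes. At an unadjusted p under 0.05 the edgeR test gave 0 receptors in either sex, against 1.12% of genes in males and 1.94% in females, and DESeq2 called 0. The difference between HR and Control lines was not shown to differ between the sexes for any of the 10 (interaction test, 0% of 16757 genes called, 0 receptors also at an unadjusted p under 0.05, against 0.460% of genes, and by DESeq2). *Vmn2r87* had the widest gap, with log2 fold changes of 0.12 ± 0.33 in males and -0.44 ± 0.38 in females, on at most 35 counts. *Vmn2r89* had 0.21 ± 0.28 in males and 0.39 ± 0.34 in females.

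Females and males differed in none of the 10 receptors by the test: 0 were called against 31 of 16507 genes (0.188%), 0 also at an unadjusted p under 0.05, against 8.08% of genes, and by DESeq2. With line as a replicate block, which compares the 2 pools of each line with each other, 0 receptors were called against 87 of 17181 genes (0.506%). In that fit the log2 fold changes of female over male were 0.11 ± 0.07 for *Vmn2r81*, -0.09 ± 0.05 for *Vmn2r83* and -0.16 ± 0.11 for *Vmn2r85*, and between -0.10 and 0.04 for the other 7. The male and female RPKM were normalised by the authors in separate tables, so the sexes were compared on the counts.

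Lines of the same linetype did differ in these receptors. Whether lines of a linetype differ by more than the 2 libraries of 1 line do was asked in 1 F test of the 6 contrasts within the linetypes (edgeR, sex as covariate). It called 7 of the 10 receptors, *Vmn2r81*, *Vmn2r82*, *Vmn2r83*, *Vmn2r85*, *Vmn2r86*, *Vmn2r88* and *Vmn2r89*, against 27.7% of 17181 genes. At an unadjusted p under 0.05 it gave 9, against 43.9% of genes. Differences between lines were common in the V2R family, with 94 of 123 *Vmn2r* genes tested called (76.4%), so the share among the 10 is near that of their family. The lines of a linetype are separate breeding populations. The test sets their differences against the disagreement of the 2 pools of a line, which are of different mice and sex. Within 1 sex, with 1 pool per line, differences between lines and between pools of mice cannot be told apart. Reads over a base that differs from the reference were not aligned, and the alleles of the lines were not examined. A lower level in a line and a loss of reads there can therefore not be told apart either.

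*Vmn2r89* had the strongest evidence of the 10 (adjusted p = 0.00042, edgeR). In Control males it was at 44.4 RPKM in line 1, 120.4 in line 2, 82.0 in line 4 and 61.2 in line 5. In Control females it was at 40.6, 127.9, 75.4 and 49.8 in the same order. In HR males it was at 84.7 in line 3, 72.6 in line 6, 90.9 in line 7 and 108 in line 8, and in HR females at 108, 79.5, 83.9 and 114. Control line 1 was lowest and Control line 2 highest in each sex, 2.92-fold apart as line means, and the 4 HR lines lay between them. Among the Control lines alone the adjusted p was 0.00020 and among the HR lines alone 0.0510 (edgeR).

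*Vmn2r88*, its neighbour, had another order of lines. It was at 168, 116.5, 94.0 and 126 RPKM in the males of Control lines 1, 2, 4 and 5 and at 151, 105, 118 and 153 in the females. In HR lines 3, 6, 7 and 8 it was at 85.2, 121, 122 and 125 in males and at 97.8, 119.9, 99.4 and 146 in females. Control line 1, where *Vmn2r89* was lowest, had the highest line mean of *Vmn2r88*, and HR line 3 the lowest, 1.74-fold below it. The adjusted p between lines was 0.0435 (edgeR), and it rose above 0.05 on leaving out any one of Control lines 1, 2 and 4 and HR lines 3 and 8 (0.0543 to 0.116). The ratio of *Vmn2r89* to *Vmn2r88* RPKM was 0.268 and 0.265 in the female and male library of Control line 1, 0.325 and 0.486 in Control line 5, and 1.22 and 1.03 in Control line 2. In HR lines it ran from 0.600 to 1.11. Over the 16 libraries the log2 CPM of the pair, with the mean of each sex removed, had a Pearson r of -0.51, a description of libraries that share lines and composition.

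**Figure D4:**
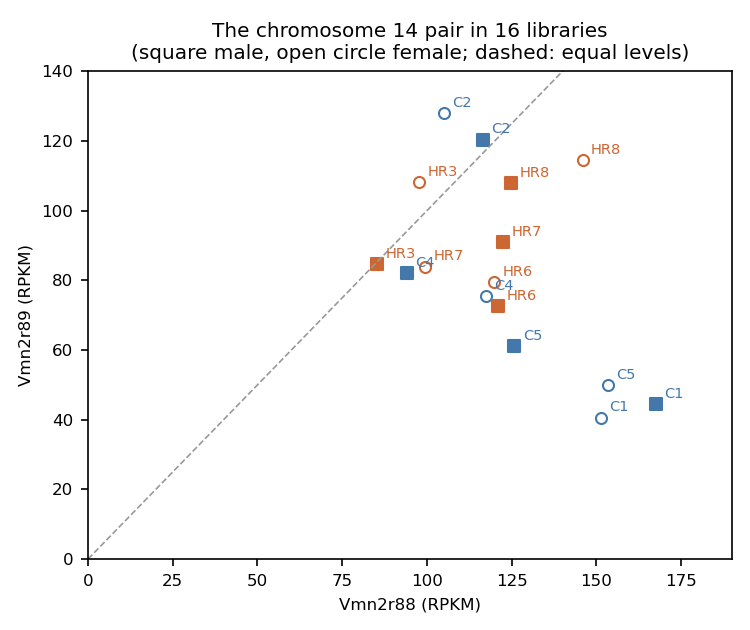
RPKM of *Vmn2r89* against *Vmn2r88* in each library (C, Control line, in blue, HR lines in orange, squares male, open circles female, dashed line equal levels). The Control line 1 libraries sit at the lower right, with *Vmn2r89* at 40.6 and 44.4 RPKM, and both Control line 2 libraries lie above the dashed line.

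*Vmn2r85* had the widest range of the distal chromosome 10 cluster as the ratio of the highest to the lowest line mean (adjusted p between lines 0.0033, edgeR). It was at 7.33, 7.43, 4.62 and 4.12 RPKM in the males of Control lines 1, 2, 4 and 5 and at 5.88, 6.43, 6.27 and 2.38 in the females. In the males of HR lines 3, 6, 7 and 8 it was at 1.75, 5.62, 3.94 and 5.75 and in the females at 1.96, 5.36, 3.79 and 5.85. HR line 3 was lowest in both sexes, 3.74-fold below Control line 2 as line means, and no other library reached so low. It was also called among the Control lines (adjusted p = 0.0245) and among the HR lines (adjusted p = 0.0040, edgeR) taken alone.

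*Vmn2r86*, 97.2% identical to *Vmn2r85* in coding sequence and its neighbour, did not follow it in HR line 3. It was at 10.27, 8.36, 4.92 and 4.18 RPKM in the males of Control lines 1, 2, 4 and 5, at 10.29, 9.03, 6.06 and 6.08 in the females, and between 5.96 and 7.55 in all 8 HR libraries. The difference between lines (adjusted p = 0.0060, edgeR) was found among the Control lines (0.0030) and not among the HR lines alone (0.652), where the SD of 4 line means was 0.369 RPKM against 2.50 in Control lines. Whether the spread differed between the linetypes was not tested. *Vmn2r84*, the third gene of the cluster, ranged from 12.5 to 23.5 RPKM and was not called (adjusted p = 0.0813, edgeR, and 0.0149 by DESeq2), and *Vmn2r87* ranged from 0.0693 to 0.352 RPKM and was not called (adjusted p = 0.627, edgeR).

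In the proximal chromosome 10 cluster, *Vmn2r82* was called with an adjusted p of 0.0035 (edgeR). It was at 54.1, 43.7, 40.9 and 37.8 RPKM in the males of Control lines 1, 2, 4 and 5, and at 54.9, 40.01, 48.4 and 35.9 in the females. In HR lines 3, 6, 7 and 8 it was at 29.4, 45.2, 52.3 and 49.7 in males and at 33.8, 40.6, 54.5 and 56.8 in females. HR line 3 was lowest in both sexes, and its 2 libraries lay below the other 14. *Vmn2r81* ranged from 47.7 RPKM in the male library of HR line 3 to 92.2 in the female library of Control line 1 (adjusted p = 0.0105, edgeR). *Vmn2r83* was the steadiest of the 10, from 15.6 to 24.5 RPKM, with Control line 1 highest in both sexes. Its adjusted p of 0.0312 rose to 0.502 without Control line 1 and to 0.0533 without HR line 7, and it also lay just above the threshold without Control line 2 or HR line 8 (edgeR).

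*Vmn2r80* reached 0.575 and 0.381 RPKM in the male and female library of HR line 3, below the 0.911 to 2.85 RPKM of the other 14 libraries. The 2 libraries of a line could lie far apart, at 2.84 and 1.37 RPKM in the male and female of Control line 5 and 1.43 and 2.85 in those of HR line 7. It was not called (adjusted p = 0.0515, edgeR) with all lines, and was called on leaving out Control line 1, Control line 5 or HR line 6 (0.0254 to 0.0484) and by DESeq2 (0.0017).

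**Figure D5:**
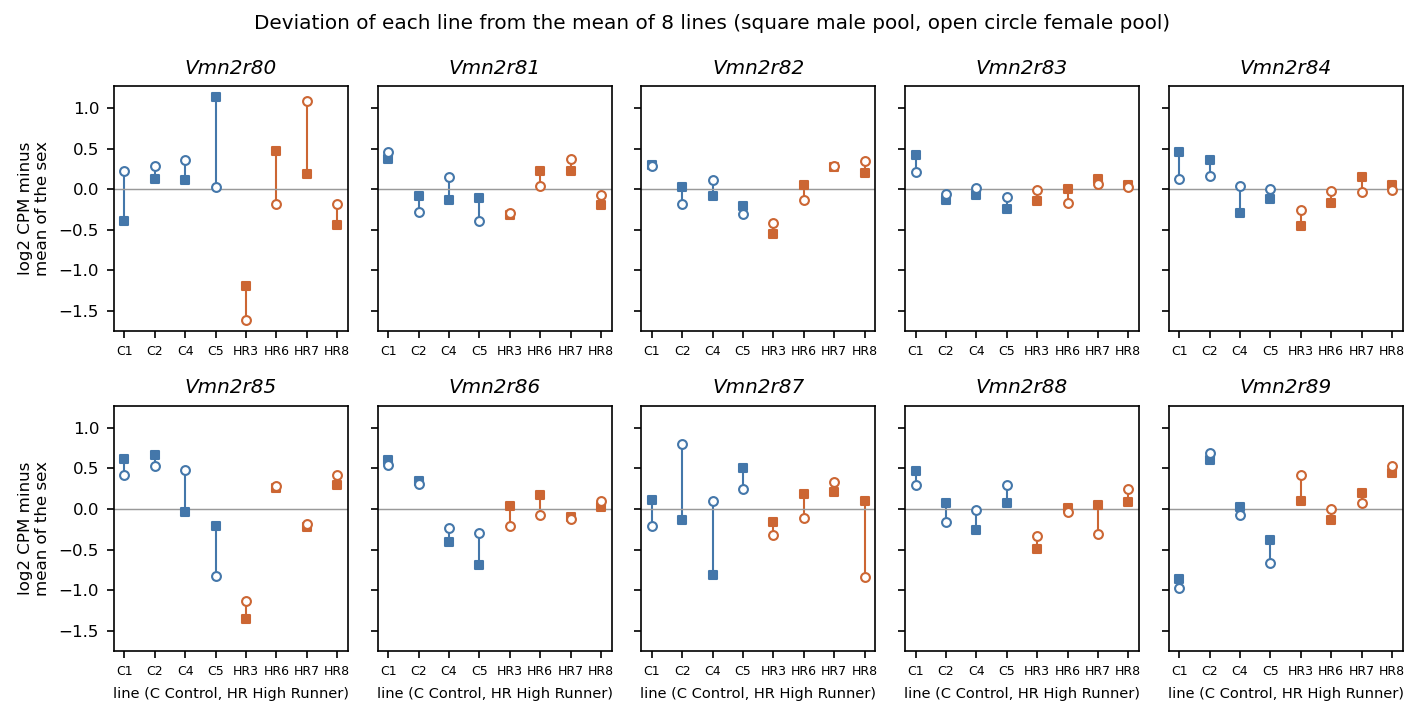
Deviation of each line from the mean of 8 lines, as log2 CPM minus the mean of the sex, for the 10 receptors (squares male pools, open circles female pools, blue Control lines, orange HR lines). HR line 3 lies below 0 in both sexes for *Vmn2r80* to *Vmn2r85*, *Vmn2r87* and *Vmn2r88*, and *Vmn2r89* lies below 0 in Control line 1 and above 0 in Control line 2 in both sexes.

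HR line 3 had the lowest line mean for 7 of the 10 receptors and Control line 1 the highest for 6. How often these lines were extreme over all genes was not counted, so this is not shown to be particular to the receptors. With the contrasts of 1 linetype at a time, 6 receptors were called among the Control lines, against 18.4% of genes, and 4 among the HR lines, against 17.0% (edgeR, a choice made after the data were seen). The summed CPM of 14 genes of basal neurons was lowest in HR line 3 (1604.5 and 1850.0 CPM in the female and male library). As a line mean it was highest in Control line 1 (2826.6 and 2833.4 CPM). Some other lists also had their lowest or highest line mean in HR line 3. As line means, transduction and maturity genes (2133.2 CPM, 2184.7 to 3122.9 in the other 7 lines) and apical neuron genes (2173.7 CPM, 2175.3 to 2896.7) were lowest there and leukocyte genes highest (28.3 CPM, 16.5 to 26.2). Control line 5 lay close to HR line 3 in transduction and maturity genes (2184.7 CPM) and in apical neuron genes (2175.3 CPM). Endothelial genes were at 40.4 CPM in HR line 3, against 16.2 to 43.9 in the others, with Control line 5 highest. Family C co-receptors had another order, with line means of 924.6 CPM in HR line 3, 778.2 in Control line 4 (lowest) and 1100.7 in HR line 8 (highest). All *Vmn2r* genes together were also lowest in Control line 4 (4539.4 CPM, against 4781.0 in HR line 3) and highest in HR line 8 (6331.1 CPM). The part of these lists in the result was not tested. Without HR line 3 the test called 6 receptors, against 3287 of 17069 genes. Leaving out this line does not test the part of the lists, which also differed over the remaining lines. When the library size was set to the counts on all *Vmn2r* genes, 6 receptors were called, against 44.6% of genes, and *Vmn2r88* was no longer among them (adjusted p = 0.128, edgeR). The SD between lines of a linetype on the log2 CPM scale was 0.31 as the median of the 10, against 0.46 over 122 *Vmn2r* genes and 0.20 over all genes past the low-count filter. It was largest for *Vmn2r80* (0.64) and *Vmn2r85* (0.63) and smallest for *Vmn2r83* (0.16).

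The receptors of a cluster varied together to differing degrees. Over the 16 libraries, log2 CPM with the mean of each sex removed gave Pearson r from -0.51 to 0.76 (median 0.44) for the 13 pairs within a cluster and from -0.47 to 0.72 (median 0.34) for the 32 pairs between clusters. The highest was *Vmn2r81* with *Vmn2r82* at 0.76, followed by *Vmn2r84* with *Vmn2r85* at 0.72 and *Vmn2r84* with *Vmn2r88*, on another chromosome, at 0.72. These pairs share libraries, lines and tissue composition. Among 16506 genes ordered by their likeness to *Vmn2r81*, *Vmn2r82* held place 28, and among those ordered by likeness to *Vmn2r84*, *Vmn2r85* held place 321.

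The genes most like each receptor over the 16 libraries were mostly outside the receptor families. They were *Rbm10* (r = 0.92) and *Ccdc92* (0.92) for *Vmn2r82*, *Gm3414* (0.92) and *Nebl* (0.90) for *Vmn2r86*, *Ndufaf5* (0.91) and *Nudt9* (0.90) for *Vmn2r85*, and *Sarm1* (0.91) and *Gatad1* (0.89) for *Vmn2r84*. For *Vmn2r88* they were *Vmn2r73* (0.89) and *Svip* (0.86), and for *Vmn2r89* *1700011H14Rik* (0.88, on a median of 11 counts) and *Vmn2r102* (0.86). *Faim2* (0.88) and *C130060C02Rik* (0.87) were nearest to *Vmn2r81*, *Kat2b* (0.86) and *Pcdhgb2* (0.85) to *Vmn2r83*, *Gm10336* (0.82) and *Ebpl* (0.81) to *Vmn2r80*, and *Nfrkb* (0.81) and *Eif4enif1* (0.80) to *Vmn2r87*. Each gene was picked as the most alike of 16506, so a high r is in part a product of the choice. No value of r was tested.

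Genes around the clusters were tested in the same fits. Of the 90 genes within 500 kb of a receptor, 38 passed the low-count filter, 26 near *Vmn2r80* to *Vmn2r83*, 12 near the chromosome 14 pair and 0 near *Vmn2r84* to *Vmn2r87*. In HR against Control lines 0 were called, 0 also at an unadjusted p under 0.05 and by DESeq2 (edgeR). Between lines of a linetype 10 of 44 tested were called (22.7%), against 27.7% of all genes. Near the proximal cluster these were *C2cd4c*, *Shc2*, *Palm*, *R3hdm4* and *Cnn2*. Near the chromosome 14 pair they were *4930597G03Rik*, with the smallest adjusted p (0.00045, edgeR), *Rnase1*, *Rnase4*, *Slc39a2* and *Ndrg2*.

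Of the other genes of basal neurons, the 7 family C co-receptors were taken first. In HR against Control lines 0 of 7 were called (edgeR, 0 at an unadjusted p under 0.05, 0 by DESeq2), with log2 fold changes from -0.16 ± 0.17 for *Vmn2r3* to 0.16 ± 0.21 for *Vmn2r5*, and their summed level was 703 to 1194.7 CPM in Control and 817 to 1143.8 CPM in HR libraries. Between lines of a linetype *Vmn2r1*, *Vmn2r3*, *Vmn2r4* and *Vmn2r5* were called. Of 14 basal neuron genes, 0 were called in HR against Control lines (edgeR, 2 at an unadjusted p under 0.05, 0 by DESeq2), from *H2-M1* at -0.82 ± 0.35, a nonclassical class I gene of these neurons, to *H2-M10.2* at 0.19 ± 0.19. Between lines 11 of the 14 were called, against 27.7% of all genes. They were *Gnao1*, *Tfap2e*, *Calr4*, *H2-M1*, *H2-M10.1*, *H2-M10.2*, *H2-M10.3*, *H2-M10.4*, *H2-M10.5*, *H2-M10.6* and *H2-M11*.

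Of 7 transduction and maturity genes tested, 0 were called in HR against Control lines (edgeR, 0 at an unadjusted p under 0.05, 0 by DESeq2), from *Itpr3* at -0.22 ± 0.18 to *Plcb2* at 0.09 ± 0.09. Between lines *Omp*, *Itpr3*, *Ano2*, *Kcnj3* and *Kcnn3* were called. Among markers of other cells, 0 were called in HR against Control lines by edgeR or DESeq2, with *Krt5* at an unadjusted p under 0.05. The lowest and highest log2 fold changes were -0.07 (*Nrp2*) and 0.03 (*Gng2*) for 5 genes of apical neurons, -0.19 (*Gnal*) and 0.46 (*Cnga2*) for 4 of main olfactory neurons, -1.03 (*Krt14*) and -0.97 (*Krt5*) for basal epithelial cells, and -0.59 (*Tekt1*) and -0.49 (*Foxj1*) for multiciliated cells. They were -0.39 (*Cdh5*) and -0.36 (*Pecam1*) for endothelium and -0.12 (*Cd68*) and 0.08 (*Ptprc*) for leukocytes. Between lines the calls were *Gnai2* and *Gng2* of apical neurons, *Cnga2*, *Cnga4* and *Gnal* of main olfactory neurons, *Krt14*, both endothelial and both leukocyte genes, and 0 of the 2 multiciliated genes (edgeR, 1 by DESeq2). Over all genes, 27.7% were called between lines by edgeR. Without Control line 4, whose female library was high in keratins, 0 of the 10 receptors were called in HR against Control lines, against 6 of 16509 genes. Between lines 6 receptors were then called, against 4459 of 17070 genes.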

How the data were processed

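VNO RNA was depleted of ribosomal RNA, and single-end reads of 75 nucleotides were aligned by the authors with STAR 2.6.1d to GRCm38, with 0 mismatches and 1 location allowed. The counting tool, its annotation and its use of strand are not given in the sources used here. The deposited counts are whole reads per gene without normalization, and the deposited RPKM are the authors' values per gene length and library size, in a separate table for each sex. Every sample column was used. Between libraries of a group, chi-square per degree of freedom was 31.1 to 780, far above counting noise, so none was a copy. Groups came from the sample labels, and male columns were matched through the names in brackets in the titles.

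The count tests were run with R 4.3.3 and edgeR 4.0.16 (TMM, filterByExpr with a minimum count of 10, quasi-likelihood tests, Benjamini-Hochberg over all genes tested, threshold 0.05). DESeq2 1.42.0, limma 3.58.1 and sums per line were alternatives. Log2 CPM used a prior count of 2. RPKM were tested as log2(RPKM + 1) by exact permutation of 8 line means (70 splits). The count tests were first run on simulated data, in which all libraries were drawn independently. That simulation does not check how a likeness of the male and female library of a line affects the tests. Depth ranged from 15998552 to 70875276 counts. With 4 lines a linetype, the lines set the precision. Replicates are pools of 3 mice, 1 per line and sex. The male and female library of a line deviated together (correlation across genes 0.321 to 0.708), so the line number pairs the sexes.

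All 10 receptors are named with values, with the 2 genes most like each, flanking genes that passed a test, and from each gene list the highest and lowest value and the genes that passed. The lists were the family C co-receptors, basal neuron genes, transduction and maturity genes, and markers of apical, main olfactory, basal epithelial, multiciliated, endothelial and leukocyte cells. The members and lists were chosen with earlier results of these data known. Promoters are RefSeq sequences of GRCm38.p6, and all 10 genes matched by symbol.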

Additional observations from a re-analysis of the deposited data

Results flagged for a closer look

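In 4 of 40 groups of 4 libraries (10 receptors in each linetype and sex), 1 library stood apart from the other 3 by Dixon's criterion, where chance flags about 1 in 20 groups. The Control male library of line 1 had *Vmn2r81* at 234 CPM, against 165 to 170.5 CPM in the other 3. The HR female library of line 3 had *Vmn2r84* at 35.3 CPM, against 41.1 to 42.0 CPM. The Control female library of line 5 had *Vmn2r85* at 5.67 CPM, against 13.5 to 14.6 CPM, and the HR male library of line 3 had *Vmn2r88* at 210 CPM, against 298 to 314 CPM.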

How the results depend on the processing

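In HR against Control lines, in each sex, in the interaction and between the sexes, 0 of the 10 receptors were called under every alternative run (DESeq2, RLE normalization, no low-count filter and each line left out, and for HR against Control also line sums and limma-voom). With line as a replicate block, 0 were called for sex and 0 for the interaction. Line is nested in linetype, so the other results were not run with the block. The exact test on log2(RPKM + 1) gave 0 receptors under p = 0.05, also with pseudocounts of 0.1 and 0.01 and on log2 CPM. With 1 line left out its smallest possible p is 0.0571, so those settings carry no information. Between lines, 7 receptors were called, 9 by DESeq2, 5 to 8 with 1 line left out (5 without Control line 2 or HR line 8), 7 with all 8 lines compared and 6 with the counts on *Vmn2r* genes as library size. With the HR lines alone 4 were called and with the Control lines alone 6, each from 3 contrasts. The cause was not tested. These 2 settings and the *Vmn2r* library size were chosen after seeing the data. Calls of *Vmn2r80*, *Vmn2r83* and *Vmn2r88* depended on single lines. The uncalled log2 fold changes of HR against Control for *Vmn2r81*, *Vmn2r82*, *Vmn2r83* and *Vmn2r86* changed sign in some settings, and at an unadjusted p at most 2 of 10 receptors were under 0.05 (without HR line 7). Over all genes, calls in HR against Control lines numbered 4 by edgeR, 1 to 17 with 1 line left out (17 without Control line 2), 30 by DESeq2 and 0 by limma-voom and line sums. DESeq2 called 13 in males and 6 in females, where edgeR called 0. For sex edgeR called 31, 13 to 25 with 1 line left out, 19 without the low-count filter, 87 with the block, and DESeq2 185. Between lines the 4757 genes called became 7277 by DESeq2, 3065 to 4967 with 1 line left out, 7661 with *Vmn2r* counts as library size, 3168 in Control and 2927 in HR lines. *Vmn2r87*, with 8 to 35 counts, is limited by depth.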
